A study of Rattus norvegicus with 9 samples.

Results

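The Ier (immediate early response) genes were followed in cultures of rat cortical neurons whose firing was blocked and then allowed to return. They were chosen by the gene names Ier2, Ier3 and Ier5 in the array annotation. Of these 3 genes, Ier2 and Ier3 had 1 probe each among the 41012 probes of the array. No probe carried the name Ier5, by the file or by its RefSeq accession, so Ier5 is not analysed here. Ier5l, a relative of Ier5 with 2 probes, is described beside the members.

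The study used single-colour arrays of dissociated cultures from the cortices of prenatal rats, at 11 to 15 days in culture, with 3 samples in each of 3 groups. All groups had spent 48 h in the sodium channel blocker tetrodotoxin (TTX), which silences action potentials. One group (TTX) was taken with the blocker present, and the others 15 min (W15) and 45 min (W45) after it had been washed out by 3 changes of medium. No group was without toxin treatment, and no washed group kept the toxin, so the wash and the return of firing cannot be told apart. The labels do not say whether the samples of a group came from separate cultures, so the p-values measure only the spread between these samples, which may be technical.

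Immediate early genes are switched on within minutes of a stimulus without the need for new protein. The Ier genes share this behaviour and a name rather than one protein family. Ier2, also known as pip92, encodes a short-lived and largely nuclear protein induced by growth factors and, in neuron-like cells, by depolarisation. Ier3, also known as IEX-1, encodes a small protein that modulates cell death and ERK signalling and is a target of NF-kB. Ier5 shares its N-terminal region with Ier2 and Ier5l, binds protein phosphatase 2A and activates the heat shock factor HSF1.

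The sequence upstream of Ier2 is shown because Ier2 is the member whose transcript rose. The 250 bases before its annotated start (RefSeq, GRCr8 build, chr19:40399123-40399372, plus strand) are given 5′ to 3′, with a match to the full cAMP response element, the site of CREB, in capitals.
Ier2 upstream: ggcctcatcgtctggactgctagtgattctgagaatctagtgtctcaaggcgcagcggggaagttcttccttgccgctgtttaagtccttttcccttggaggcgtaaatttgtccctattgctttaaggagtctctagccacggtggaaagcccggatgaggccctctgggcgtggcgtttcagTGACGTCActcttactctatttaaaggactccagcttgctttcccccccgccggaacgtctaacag
The element, TGACGTCA, reads the same on both strands, and its first base lies 66 bases before the start. It occurs in the same window of 1.59% of the 33469 RefSeq promoters searched. The CArG box, the site of SRF, and the AP-1 site, TGANTCA, were not matched in this window on either strand of Ier2. They occur in 1.5% and 6.34% of the promoters. Nor were the CCAAT box (CCAAT, in 34.0% of promoters), the heat shock half-site pair GAANNTTC (7.23%) or the NF-kB site (0.0956%) matched there. A match describes letters, not a bound site, and a missing match says only that these letters are not in the window. Of the 2 members on the array, Ier2 matched RefSeq's promoter table and Ier3 did not.

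Ier2 rose by 45 min after the toxin was removed, and Ier3 did not pass the test at either time. Values are log2 signals minus the 75th percentile of each array, so that 0 is the signal of a bright probe and 1 unit is a doubling. Signals of TTX samples 1, 2 and 3 for Ier2 were 2.67, 2.80 and 2.81. At 15 min they were 3.68, 3.88 and 3.73, and at 45 min 5.33, 4.97 and 4.79. The 3 groups did not overlap, and the samples at 45 min lay farther apart (SD 0.27, n = 3) than those in TTX (SD 0.08) or at 15 min (SD 0.10). On the scanner's own scale, before any scaling, the Ier2 signal ran from 11667 to 17695 in TTX, from 21146 to 25841 at 15 min and from 47007 to 74160 at 45 min. The probe was well above background and below saturation on every array. In RNA of whole cultures, fewer cells of a type and less RNA per cell cannot be told apart.

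**Figure D1:**
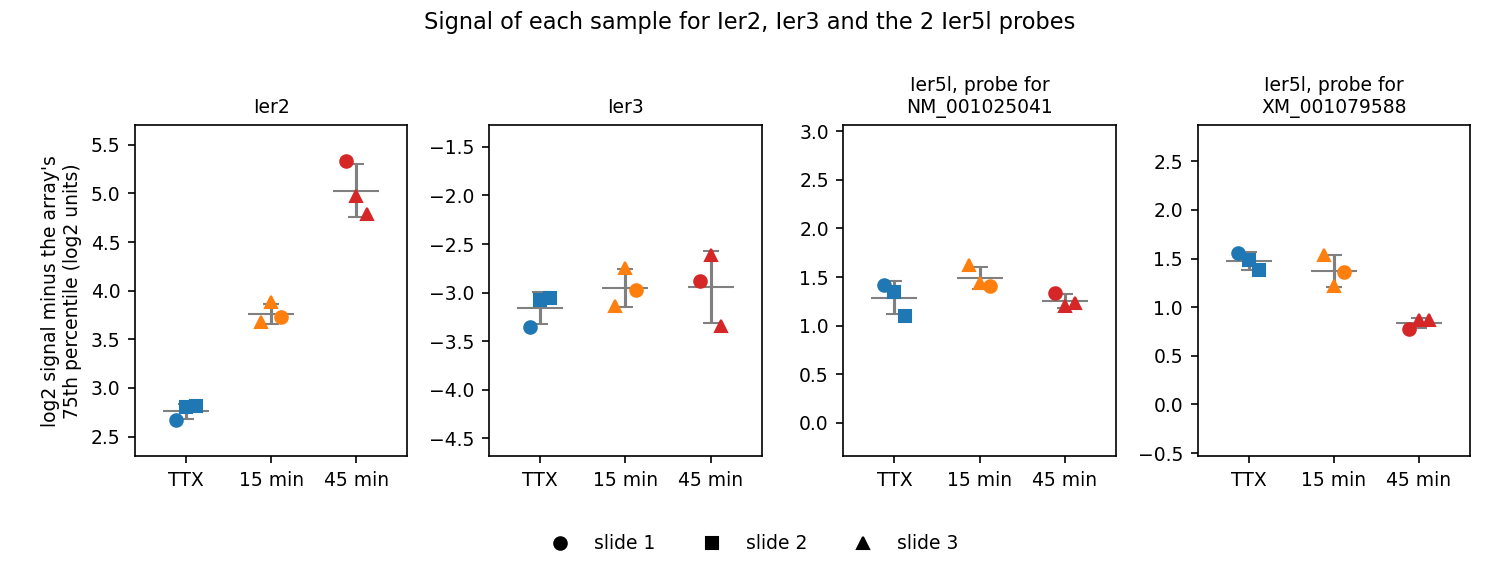
Log2 signal minus the 75th percentile of the array for Ier2, Ier3 and both Ier5l probes in each of the 9 samples, with the group mean and SD (n = 3). Every panel spans the same range, marker shapes give the slide, and the Ier2 samples climb from 2.67 to 2.81 in TTX to 4.79 to 5.33 at 45 min, while the Ier3 groups overlap.

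At 45 min Ier2 was 4.83-fold above TTX (95% interval 3.79 to 6.16), a log2 change of 2.27 ± 0.16 (SE, n = 3 per group, limma adjusted p = 0.000175). Of the 30321 probes tested, 0.175% were called higher in this comparison at an adjusted p under 0.05. Ier2 stood at place 24 of all probes by size of rise and at place 18 by p. The median change of all probes was 0.045. The samples of 8.03% of all probes were likewise all higher at 45 min than in TTX. The call held under each of the 12 other settings and in each of the 9 fits that left out 1 sample, with log2 changes between 2.01 and 2.49 and an adjusted p of at most 0.0226.

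At 15 min the log2 change of Ier2 was 1.0 ± 0.16 (SE, n = 3 per group), or 2-fold, with a 95% interval of 1.57 to 2.55. It did not pass the adjusted threshold (limma adjusted p = 0.292, unadjusted p = 0.000106). Of all probes, 0.0198% were called higher at 15 min, and Ier2 stood at place 11 by p and at place 46 by size. Its 3 samples at 15 min were all above its 3 TTX samples, as were those of 9.47% of all probes (4.45% lay entirely below). Under the 12 other settings the log2 change lay between 0.80 and 1.22 and the adjusted p between 0.0558 and 1.

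Between 15 and 45 min Ier2 rose a further 2.41-fold, by 1.27 ± 0.16 on the log2 scale (SE, n = 3 per group, limma adjusted p = 0.0197). In this comparison 0.119% of all probes were called higher, and the samples of 4.02% were all higher at 45 min. The call was less firm than that against TTX, and it was lost with a block for the replicate number (limma adjusted p = 0.0719). It held in 5 of the 12 other settings and in 2 of the 9 fits without 1 sample, those without W45 replicate 1 or 3. Its adjusted p was 0.053, 0.0621 and 0.0629 when TTX samples 1, 2 and 3 were left out in turn, 0.118, 0.0742 and 0.0683 for W15 samples 1, 2 and 3, and 0.0988 for W45 sample 2. The direction was the same in all of them, with log2 changes between 1.06 and 1.39. Of the gain in signal that Ier2 had made by 45 min, 25.9% was present at 15 min, in terms of the mean scaled signal of each group. On the log2 scale the share was 44.1%. Neither share carries an interval, and the change at 15 min was itself not called.

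The samples lay on 3 slides, which the groups filled unevenly. The first replicates of TTX and W45 shared slide 1 with the third of W15. Both other TTX samples were alone on slide 2, and the remaining washed samples, 2 of each time, filled slide 3. On slide 1, with 1 sample per group, Ier2 differed from TTX by 1.05 at 15 min and by 2.66 at 45 min, and the later interval added 1.605. On slide 3, with 2 samples per group, the difference between 45 and 15 min was 1.10 (limma adjusted p = 0.375). In that fit 0 of the 30321 probes were called, so the missing call is not particular to Ier2. With slide as a fixed block the changes of Ier2 against TTX were 1.22 (adjusted p = 0.999) and 2.49 (limma adjusted p = 0.0226), and both depend on the lone TTX sample on slide 1. For 45 against 15 min the blocked value was 1.27 (adjusted p = 0.0698).

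**Figure D2:**
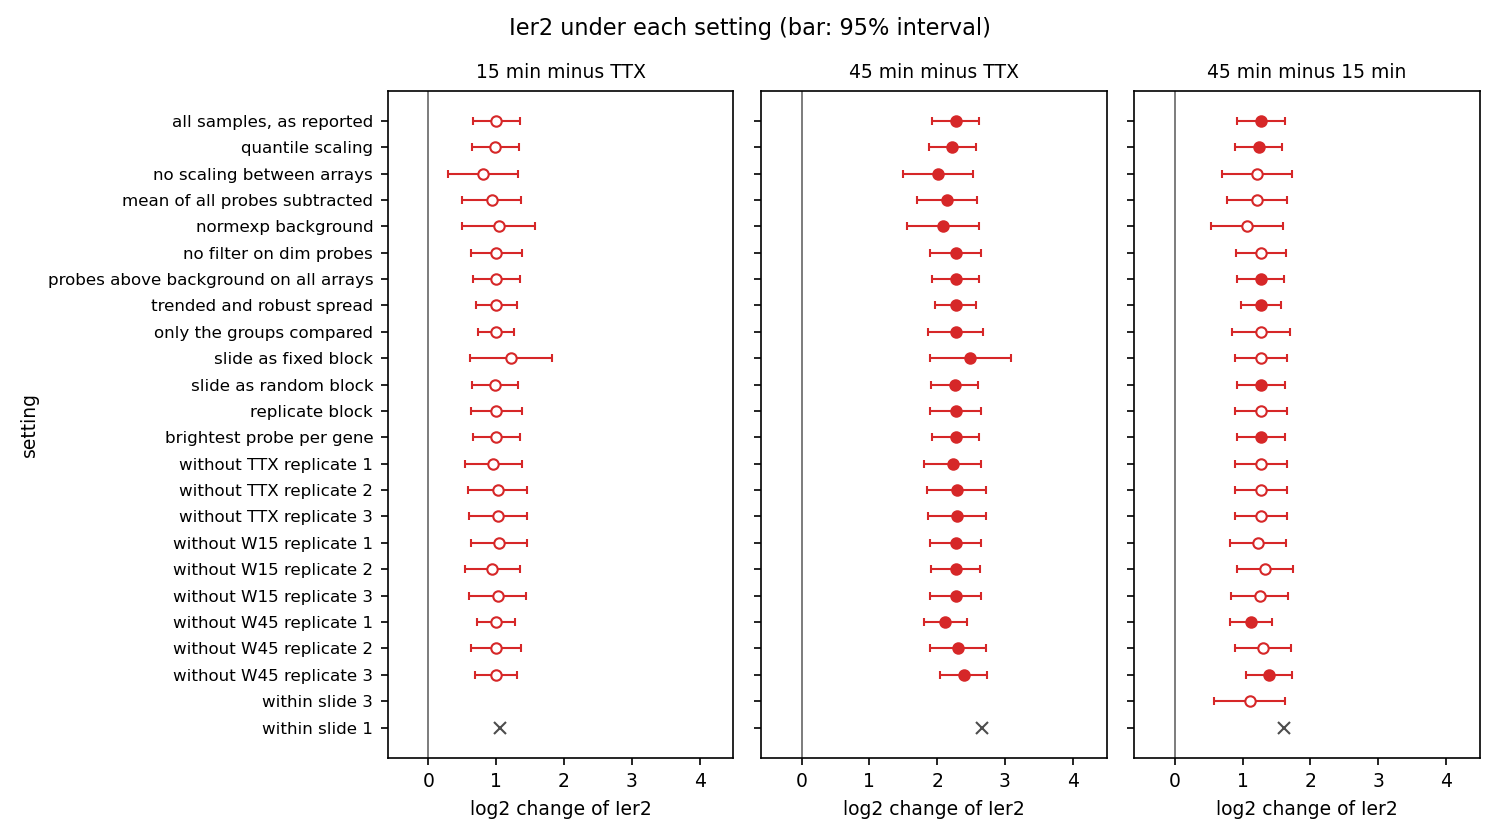
Log2 change of Ier2 in the 3 comparisons under each setting, as points with 95% intervals for the single probe. Filled points passed limma's adjusted p of 0.05, open points did not, and crosses are slide 1 with 1 sample per group and no test. Every point lies above 0, all tested points of 45 min against TTX are filled, and none of 15 min against TTX is.

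Ier3 had a low signal in every group and no call in any comparison. Its log2 values were -3.35, -3.08 and -3.05 in TTX samples 1 to 3, -3.14, -2.75 and -2.97 at 15 min, and -2.88, -2.61 and -3.34 at 45 min. The 3 groups overlapped, and the spread was widest at 45 min (SD 0.37, n = 3). The probe was well above background on all 9 arrays, with scanner signals of 168 to 305, but the scanner software did not locate its spot by itself on TTX replicate 1 and W45 replicate 3, the lowest sample of each of these groups.

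Against TTX, Ier3 differed by 0.21 ± 0.20 at 15 min and by 0.22 ± 0.20 at 45 min (SE, n = 3 per group, limma adjusted p = 0.988 and 0.906). The 95% interval at 45 min ran from -0.23 to 0.67, or from 0.853 to 1.59 times the TTX signal. Between 15 and 45 min the difference was 0.02 ± 0.20 (limma adjusted p = 0.991). Without scaling between arrays its difference at 45 min against TTX was -0.04, so its sign was not settled. Leaving out 1 sample moved that difference to between 0.06 and 0.42. The lowest was without W45 replicate 2, and the highest without W45 replicate 3 (interval 0.03 to 0.81, unadjusted p = 0.0391, limma adjusted p = 0.507). Without TTX replicate 1, the other sample whose spot was not located, it was 0.13.

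Ier2 was also read against Ier3 within each array, where scaling between arrays cancels. The log2 difference Ier2 minus Ier3, of which only the change is read, was 5.92 ± 0.09 in TTX, 6.72 ± 0.09 at 15 min and 7.97 ± 0.34 at 45 min (SD, n = 3). It therefore grew by 0.80 by 15 min and by 2.05 by 45 min. The groups did not overlap in any of the 3 comparisons, and how often other probes minus Ier3 separate in this way was not computed. Single probes were higher in all samples for 9.47% at 15 min and 8.03% at 45 min against TTX, and for 4.02% at 45 against 15 min. An exact two-sided permutation test of Ier2 minus Ier3 gave p = 0.1 in each comparison, the smallest value that 3 against 3 samples allow. It stayed at 0.1 after Benjamini-Hochberg adjustment over these 3 tests. With the normexp background model the growth by 15 min was 0.57 and its exact p was 0.2.

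Ier5l was read by 2 probes, and they did not give the same picture. The probe for NM_001025041 had means of 1.29 ± 0.17 in TTX, 1.49 ± 0.11 at 15 min and 1.26 ± 0.07 at 45 min (SD, n = 3). Its difference at 45 min against TTX was -0.03 ± 0.13 (SE, limma adjusted p = 0.986). The probe for XM_001079588 had 1.56, 1.49 and 1.38 in TTX, 1.54, 1.22 and 1.36 at 15 min, and 0.78, 0.87 and 0.87 at 45 min. On this second probe all 3 samples at 45 min lay below all samples of the other groups, as was so against TTX for 3.61% of all probes. The log2 difference from TTX was -0.64 ± 0.13 (SE, n = 3 per group), which was not called (limma adjusted p = 0.191, unadjusted p = 0.000683, place 108 by p), where 0.0231% of all probes were called lower. Over the 11 other settings that fitted this probe the difference lay between -0.90 and -0.56, with an adjusted p of at least 0.0925. Between 15 and 45 min it was -0.53 ± 0.13 on the second probe (limma adjusted p = 0.419) and -0.23 ± 0.13 on the first (adjusted p = 0.803). On both probes all samples at 45 min lay below those at 15 min, as was so for 4.05% of all probes, and 0.00989% were called lower. Without W45 replicate 1 the shares of all probes called lower were 0.406% against TTX and 0.528% against 15 min, and the second probe was still not called (adjusted p = 0.125 and 0.172). The difference between the probes was not tested.

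In the rn3 build the files place the Ier2 probe (NM_001009541) on the plus strand at chr19:25165474-25165533 and the Ier3 probe (NM_212505) on the minus strand at chr20:3077059-3077118. The Ier5l probes lie on the minus strand at chr3:9517202-9517261 for NM_001025041 and chr3:9516171-9516230 for XM_001079588, so the second starts 1031 bases farther along the strand. Of the 60 bases of each probe, G and C made up 40.0% for Ier2, 41.7% for Ier3, and 68.3% and 35.0% for the first and second Ier5l probes. The letters ATTTA, the core of AU-rich elements that mark unstable transcripts, occur once in the Ier2 probe, once in the second Ier5l probe and 2 times in the Ier3 probe, and 7.61% of all probes hold them. No annotation of the rn3 build was used, so whether a probe lies in coding sequence or in an untranslated region was not determined.

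Ier2 was set beside 31 other immediate early genes that were measured, of 32 listed. By 45 min 18 of the 31 rose and 0 fell by limma's adjusted p (25 and 1 at an unadjusted p under 0.05). Of all probes, 0.175% were called higher and 0.0231% lower, and 3.52% and 2.85% were higher and lower at an unadjusted p under 0.05. The list was chosen with earlier results of these data known, so its count is a description. It had a median log2 change of 1.78 against 0.04 for all probes. Those that rose were the transcription factors Fos, Fosl1, Junb, Egr1, Egr2, Egr3, Egr4, Npas4, Nr4a1, Nr4a2, Maff and Klf4, together with Arc, Btg2, the phosphatase Dusp1, the matrix protein Ccn1, Gadd45b and Gadd45g. Their log2 changes ran from 1.34 for Egr3 to 6.61 for Fos, apart from Npas4, which was not well above background in any TTX sample. By group means, Npas4 was therefore at least 198-fold higher at 45 min and at least 19.4-fold higher at 15 min. These bounds set the mean of the washed samples against a floor for each TTX array. The floor is the higher of the probe's own signal and the lowest signal of any probe well above background. The bounds carry no interval for the spread between samples, which for Npas4 at 15 min was wide (SD 0.95, n = 3). The change of Ier2 at 45 min was smaller than that of 14 of them and larger than that of 17. At 15 min 6 of the 31 rose, namely Npas4, Fos, Junb, Egr1, Egr4 and Gadd45g, and 0 fell. These 6 were all the probes called on the array (0.0198%). At 15 min 8 of the 31 had a larger change than Ier2. The genes nearest to Ier2 in size at 45 min were Btg2, an antiproliferative gene (2.38 ± 0.15), and Klf4, a zinc-finger transcription factor (2.26 ± 0.14), both SE. At 15 min Btg2 had 0.23 ± 0.15 and Klf4 0.11 ± 0.14 (limma adjusted p = 0.988 for each), against the 1.0 ± 0.16 of Ier2. The difference between Ier2 and either gene was not tested. The comparisons at 15 and 45 min share the TTX samples.

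**Figure D3:**
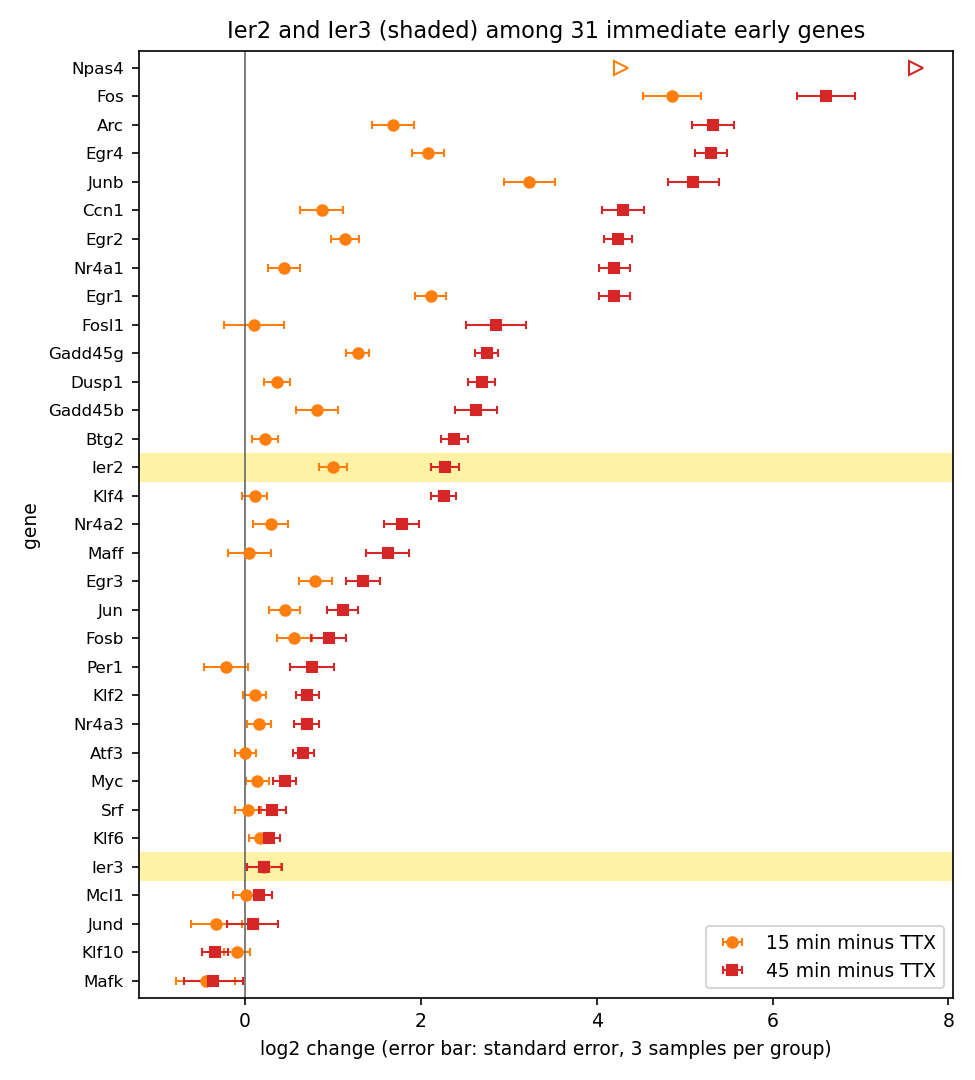
Log2 change against TTX at 15 min (circles) and 45 min (squares) for Ier2, Ier3 (both shaded) and 31 other immediate early genes, ordered by the change at 45 min, with standard errors. Open triangles are lower bounds by group means, without an interval, for Npas4. Ier2 lies mid-way in the order at 45 min, between Btg2 and Klf4, and Ier3 lies among the genes near 0.

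Over the 9 samples, the genes whose pattern was most like that of Ier2 were Egr4 (Pearson r = 0.991), Gadd45g (0.988), Egr1 (0.985), Arc (0.985), Gadd45b (0.981) and Egr2 (0.975), out of 12278 genes with a symbol. This describes 9 samples that share 3 groups and 3 slides. Egr4, Egr1 and Egr2 are zinc-finger transcription factors, Arc is a synaptic protein, and Gadd45g and Gadd45b are stress-inducible genes. Their log2 changes at 15 min were 2.08 for Egr4, 1.28 for Gadd45g, 2.11 for Egr1, 1.68 for Arc, 0.82 for Gadd45b and 1.14 for Egr2. At 45 min they were 5.30, 2.75, 4.20, 5.32, 2.63 and 4.24 in the same order, each above the 2.27 of Ier2, with no test of the difference. The 6 genes most like Ier3 were Nudt19 (r = 0.973), Ccdc71, Ak8, Ywhab, Mgat1 and Plcd4 (0.953). These are the highest of 12278 genes over 9 samples, for a dim probe whose groups overlapped. Whether such values exceed chance was not tested. None of these 6 genes was called by limma in any comparison, and their log2 changes at 45 min against TTX lay between 0.10 for Mgat1 and 0.33 for Ywhab.

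Across the SRF and ERK, NF-kB, heat shock and protein phosphatase 2A lists, with 53 measured genes, limma called 0 in any comparison, while at an unadjusted p under 0.05 there were 0 at 15 min, and 4 higher and 0 lower at 45 min against TTX. With 0.198% of all probes called at 45 min in either direction, the 0 calls do not set the lists apart from the other probes. At an unadjusted p under 0.05, 2.24% of all probes were higher and 1.12% lower at 15 min against TTX. The 0 of the lists at 15 min therefore does not set them apart either. At 45 min against TTX 3.52% of all probes were higher and 2.85% lower at that p. Between 15 and 45 min 4 of the 53 were higher and 0 lower at that p, against 2.76% and 3.85% of all probes. In both comparisons 2 of the 4 higher were among the 11 NF-kB genes, so the pooled counts do not speak for each list. No list was tested. Of the 15 measured genes of SRF, its partners and the ERK cascade, the median at 45 min was 0.08. Srf itself had 0.31 ± 0.15 (SE), its partners Elk4 and Elk3 had 0.33 and 0.29, and the ERK-activated kinase Rps6ka1 had 0.28. Of 11 measured genes among NF-kB subunits, inhibitors and early targets the median was 0.12. The chemokine Cxcl1 had 2.26 ± 0.36 (SE, limma adjusted p = 0.0628) and the NF-kB regulator Nfkbiz 0.82 (adjusted p = 0.23). The survival gene Birc3 had 0.41 and the subunit Rela 0.29. Of 14 heat shock genes the median was 0.07, with the chaperones Hsp90ab1 at 0.34, Dnaja1 at -0.32, Hspb1 at 0.22 and Hspa8 at 0.17. Of 13 protein phosphatase 2A subunits the median was 0.10, with the regulatory subunits Ppp2r2d at 0.21, Ppp2r2a at -0.20, Ppp2r3a at 0.17 and Ppp2r5a at 0.17. The median of all probes was 0.04 in this comparison.

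Between 72.4 and 77.9% of the probes were well above background, and the 75th percentile of signal was 1563 to 2526. Correlations between samples of a group were 0.984 to 0.996. All 9 neuronal markers listed were measured, and so were all 5 of astrocytes, of oligodendrocytes and of fibroblasts. Of 5 microglial markers 2 were kept, and Aif1 and Cx3cr1 were not above background on any array. Of 5 endothelial markers 2 were kept, and Tek was not above background on any array. The summed level of the neuronal markers, in multiples of the 75th percentile, was 97.8 to 123 in TTX, 107 to 128 at 15 min and 95 to 123 at 45 min. That of the astrocyte markers was 63.7 to 76.0, 65.6 to 72.8 and 55.6 to 79.7, of the oligodendrocyte markers 13.7 to 20.4, 11.8 to 22.6 and 15.4 to 20.8, and of the kept endothelial markers 0.199 to 0.237, 0.187 to 0.235 and 0.205 to 0.263. The kept microglial markers summed to 0.235 to 0.289, 0.221 to 0.238 and 0.116 to 0.26. Only the fibroblast markers, at 1.29 to 1.4 in TTX, were above the TTX range in every sample at 15 min (1.46 to 1.64), though not at 45 min (1.3 to 1.66), and their part in the values at 15 min was not tested. Of 28 markers kept, limma called 0 in any comparison, with 2 at an unadjusted p under 0.05 at 45 min against TTX, where 6.37% of all probes had such a p. These counts do not set the markers apart from the other probes. Since markers of astrocytes, oligodendrocytes and fibroblasts were measured beside those of neurons, the cell type in which Ier2 rose cannot be told.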

How the data were processed

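Per the file headers, the deposited values are spot intensity readings of 1 colour (Cy3) on Agilent rat arrays of design 014879, written by Feature Extraction version 9.5.3.1 (the submitters' processing notes give 9.5), with positions in the rn3 build. Per the labels' protocols, 500 ng of total RNA went into each labelling. The processed signal, an intensity already background-subtracted and detrended within the array by the authors' software, is not scaled between arrays, and the deposited value table held the same intensity values (largest difference 0). Here 1639 control spots and 49 to 111 outlier spots per array were left out, spots of a probe were averaged, and log2 signals minus the 75th percentile over the probe spots of each array were analysed. A probe was kept if well above background on all 3 arrays of a group (30321 of 41012). No value of Ier2, Ier3 or Ier5l was missing or imputed.

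All 9 samples were fitted with limma 3.58.1 (R 4.3.3, statmod 1.5.0), with 1 mean per group and a two-sided moderated test. Adjusted p is Benjamini-Hochberg over all kept probes, and 0.05 is the threshold. The code of the fit was checked on data simulated with the means and spreads of these arrays. The simulated noise was independent between samples, without slide or replicate effects, so this check does not bear on those. Probe names were matched to the RefSeq gene table of GRCr8 by accession (10735 probes), symbol (5571), other accession (83) or synonym (3705), and the others kept the name in the files. A gene of a list is read by its brightest kept probe. Named were the members, Ier5l, the 6 genes most correlated with each member, and, from each list, genes called or among the 4 largest changes at 45 min. Alternatives changed the scaling, background, dim-probe filter, spread estimate, samples, slide, replicate block and unit tested. Figures used matplotlib 3.10.9 (Python 3.11.15). The members and lists were chosen with earlier results of these data known. A further gene list is not reported here.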

Additional observations from a re-analysis of the deposited data

How the results depend on the processing

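The rise of Ier2 at 45 min against TTX kept its direction and its call in all 12 settings and in all 9 fits without 1 sample (log2 2.12 to 2.39). On slide 1 alone it was 2.66. The rise from 15 to 45 min kept its direction. Its call was lost without scaling between arrays (1.21, adjusted p = 0.154), with the mean of all probes subtracted (1.21, 0.0782), the normexp background (1.06, 0.534), no filter on dim probes (1.27, 0.0677), only the groups compared (1.27, 0.172), slide as a fixed block (1.27, 0.0698) and the replicate block (1.27, 0.0719). On slide 3 alone the rise was 1.10 (limma adjusted p = 0.375), in a fit that called 0 of all 30321 probes. It was 1.605 on slide 1, and 1.12 to 1.39 without 1 sample.

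Ier3 at 45 min against TTX turned to -0.039 without scaling and lay between 0.06 and 0.42 without 1 sample. Its difference between 45 and 15 min, 0.02, turned to -0.045 without scaling, -0.041 with the mean subtracted, -0.34 with normexp and -0.023 on slide 3, and lay between -0.15 and 0.22 without 1 sample. The first Ier5l probe at 45 min against TTX lay between -0.13 and 0.03 without 1 sample, the highest (0.033) without TTX replicate 1.

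The median change of all probes from TTX, unscaled, was -0.156 (15 min) and -0.216 (45 min). With normexp it was 0.2 and 0.117, and -0.195 between 15 and 45 min.

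Called probes numbered 6 at 15 min, 60 at 45 min and 39 for 45 against 15 min. Normexp gave 1, 26 and 16, fitting the compared groups alone gave 10, 33 and 21, and slide as a fixed block gave 0 (409 higher and 681 lower at an unadjusted p under 0.05), 25 and 28. At 45 min they were 34 without scaling and 37 without the dim-probe filter, which gave 22 for 45 against 15 min. Without 1 sample they ranged from 2 to 8, 31 to 203 and 20 to 234. The counts of 203 (80 higher, 123 lower) and 234 (74 higher, 160 lower) were without W45 replicate 1, against 53 higher and 7 lower, and 36 higher and 3 lower, with all samples, and those without W45 replicate 3 were 93 and 74. With the replicate block they were 5, 51 and 30.

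Deviations of samples with the same replicate number correlated by 0.06 to 0.38, and those with different numbers by -0.39 to 0.08. Each sample correlated best with its own number in each other group (18 of 18), a hint from the data and not from the design. That count takes each pair from both of its samples. Deviations from a group mean also cancel within the group, so a high correlation with the same number lowers those with the others. The labels name nothing shared by a number, and 7 of the 9 same-number pairs, not all, were over 0.1, so the fit without the block was kept. With the replicate block Ier2 had a limma adjusted p of 0.874 at 15 min and 0.00288 at 45 min against TTX. For 45 against 15 min it was 0.0719, so that call was lost. The Ier5 fits and the differences with Ier5 were not run, since no probe carries that name. The number of arrays limits the precision, and the signal of Ier3 is near the dim end. The cause of each lost call was not tested.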
